A study of Mus musculus with 24 samples.

Results

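A set of 10 protein-coding genes of proximal mouse chromosome 12 were followed as the chromosomal neighborhood of Mycn. These 10 genes, Ddx1, Nbas, Smc6, Gen1, Rock2, Pdia6, Kidins220, Nol10, Taf1b and Asap2, were taken by name from the 21833 genes of the deposited table. All 10 were found, and 9 of them were among the 10171 genes that reached 1 FPKM in 3 or more libraries, the set that was tested. FPKM count the fragments of a gene for each kilobase of its length, scaled to the library size. Gen1 stayed below this level in all but 1 library and was compared separately.

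The libraries came from mice that could carry human IGF2BP1 or human MYCN transgenes at the Rosa26 locus, kept silent by a stop cassette until Cre recombinase removes it. Cre was expressed under the Dbh promoter, which is active in the sympatho-adrenal lineage, the origin of neuroblastoma. AG were adrenal glands of mice without Cre (n = 3), and AGM were tumor-free adrenal glands of Cre-positive mice with 1 MYCN allele (n = 5). TI were tumors of mice with the IGF2BP1 transgene (n = 8, of which 1 was heterozygous and 7 homozygous), and TIM were tumors of mice with both transgenes (n = 8). The labels give no transgene alleles for AG and no zygosity for TIM. The paper describes AG as wildtype, and its genotyping of double transgenic mice found no wildtype Rosa26 locus. TIM thus carried 1 allele of each transgene, so against the 7 homozygous TI tumors the IGF2BP1 dose differs too. The mice had been backcrossed to C57Bl6/N. Because the transgenes are human, the Mycn row reports the mouse locus on chromosome 12, and how many transgene reads align there was not tested. The mouse Igf2bp1 row held 0 to 81 reads per library in the 4 groups and does not measure the transgene. Libraries are named by group and a letter that follows the order of the table and no sample title.

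In human neuroblastoma, DDX1 and NBAS are the classical passengers of MYCN amplification, since they lie next to MYCN on the short arm of chromosome 2 and are often amplified with it. The mouse counterpart of this segment lies on proximal chromosome 12. Genes that share a stretch of chromosome tend to follow its copy number in their RNA, whereas their functions need not be related. The 10 genes have unlike functions. Ddx1 encodes an RNA helicase of the tRNA ligase complex, and Nbas a subunit of a tethering complex for Golgi-to-ER vesicles that also takes part in RNA decay. Smc6 encodes a core subunit of the SMC5/6 complex and Gen1 a nuclease that resolves Holliday junctions, so both serve DNA repair. Rock2 encodes a kinase that acts on the actomyosin cytoskeleton, Pdia6 a disulfide isomerase of the ER, and Kidins220 a neuronal scaffold of neurotrophin receptors. Nol10 encodes a nucleolar protein of ribosome biogenesis, Taf1b a subunit of the RNA polymerase I initiation factor SL1, and Asap2 a GTPase-activating protein of ARF proteins.

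Positions were read from GENCODE M39 on GRCm39. Mycn lies at chr12:12986076-12992915 on the minus strand. Gen1 at chr12:11287540-11316033 (minus strand) and Smc6 at chr12:11315869-11375286 (plus strand) start 1.70 and 1.67 Mb before it, head to head, and share 165 exonic bases on opposite strands. Ddx1 at chr12:13266795-13299226 (minus strand) and Nbas at chr12:13319106-13637070 (plus strand) are the nearest of the 10, at 0.281 and 0.333 Mb, and are 19.88 kb apart. Rock2 starts at chr12:16944797-17037834, Pdia6 at chr12:17316533-17335913 and Nol10 at chr12:17398429-17480096, that is 3.96, 4.33 and 4.41 Mb from the start of Mycn. Farther out are Asap2 at chr12:21040460-21320172 (8.05 Mb), Taf1b at chr12:24548358-24608556 (11.6 Mb) and Kidins220 at chr12:25024044-25118577 (12.04 Mb). Pdia6 shares 365 exonic bases with Atp6v1c2 and Asap2 2264 with Itgb1bp1, each on the opposite strand. The libraries were strand-specific but the strand setting of the counting was not given in the sources used here, so for these genes and for the Gen1 and Smc6 pair reads of the partner cannot be told apart.

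To show the regulatory letters near the start, bases before the RefSeq start were read for Mycn and for Ddx1 and Nbas, its nearest neighbors. Pdia6 was added as the gene in which the 2 tumor models did not overlap. Sequences are RefSeq promoter bases (GRCm38.p6 table) that match GRCm39 exactly once, limited to bases outside exons and written 5′ to 3′ on the strand of the gene. Capitals mark CANNTG, the general E-box to which basic helix-loop-helix proteins such as MYCN bind, with CACGTG as the preferred form. The coordinates are chr12:12991916-12992087 for Mycn, chr12:13299227-13299425 for Ddx1, chr12:13318878-13319105 for Nbas and chr12:17316340-17316532 for Pdia6. The Mycn stretch lies inside the GENCODE gene span given here, and so not before the GENCODE start.
Mycn: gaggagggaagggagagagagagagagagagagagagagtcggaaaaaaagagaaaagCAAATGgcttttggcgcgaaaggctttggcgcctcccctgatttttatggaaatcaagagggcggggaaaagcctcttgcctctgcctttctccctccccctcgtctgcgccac
Ddx1: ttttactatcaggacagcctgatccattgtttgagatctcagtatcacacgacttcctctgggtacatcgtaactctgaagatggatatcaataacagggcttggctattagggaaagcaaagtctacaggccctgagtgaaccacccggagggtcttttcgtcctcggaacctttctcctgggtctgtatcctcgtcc
Nbas: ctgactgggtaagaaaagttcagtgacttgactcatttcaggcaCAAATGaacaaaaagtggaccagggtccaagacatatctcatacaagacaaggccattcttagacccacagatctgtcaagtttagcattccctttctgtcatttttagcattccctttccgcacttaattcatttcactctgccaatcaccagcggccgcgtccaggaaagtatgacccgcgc
Pdia6: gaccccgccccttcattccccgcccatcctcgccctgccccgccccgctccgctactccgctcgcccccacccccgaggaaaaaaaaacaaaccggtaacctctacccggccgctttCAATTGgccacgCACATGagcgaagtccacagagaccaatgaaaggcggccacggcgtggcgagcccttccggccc
CANNTG occurred once in the printed stretches of Mycn and Nbas, 2 times in that of Pdia6 and not in that of Ddx1, and was held by 66.2% of 32851 mouse promoters of 250 bases. CACGTG reads the same on both strands and is itself one form of CANNTG. Of the 9 neighbors with a promoter in the table, 1 held CACGTG (Kidins220, 20 bases before the RefSeq start, in a window that lies wholly in GENCODE exons and inside the gene span given here), and 6.02% of all promoters did. Asap2 had no entry. A match is a description of letters and not of binding.

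Apart from 126 genes that exceeded 1000 FPKM in any library, 12334076 to 23683176 reads per library could be recovered. This served as the depth. With the 126 genes included, recovered reads were 17434796 to 17893013 in AG and 12468968 to 21353172 in TI. They were 116740738 to 1170004708 in AGM and 58530450 to 888626365 in TIM, and the cause was not tested. Read numbers cover counting error only. Per the labels, all AG samples were sequenced in run 1 and all AGM samples in run 2, the TI samples fell into runs 1 (6), 2 (1) and 3 (1), and the TIM samples into runs 2 (3) and 3 (5). Since table columns could be assigned to groups but not to samples, no value within a run could be given, and for AGM and TIM against AG, run and group cannot be told apart. TIM vs TI is largely confounded with run too, since no TIM sample belonged to run 1, which held 6 of 8 TI samples. The labels do not say which tumors came from which litters, and a p-value measures the spread between the libraries of a group. The 8 adrenal cortex markers, enzymes and receptors of steroid synthesis, summed to 645 to 667 FPKM in AG and to 4293 to 5373 FPKM in AGM, but to 0.0173 to 10.1 FPKM in TI tumors and 0.281 to 9.28 FPKM in TIM tumors. The 8 neuroblast and chromaffin markers reached a sum of 88.6 to 128 FPKM in AG and of 897 to 1694 FPKM in AGM, with 211 to 1580 FPKM in TI tumors and 222 to 3867 FPKM in TIM tumors. None of these 16 markers was at 0 in a whole group. In bulk RNA, fewer cells of a type and less RNA per cell cannot be told apart.

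The first comparison asked how the neighbors of Mycn differ between the 2 tumor models. Each of the 10 had a lower mean in TIM than in TI, and 6 of the 10 fell past an FDR of 0.05 in limma when no filter on low values was used (9.44% of 18862 genes did). Among the genes that passed the filter, 6 of 9 were lower, 0 were higher, and 12.9% of all tested genes were called lower. The median log2 fold change was -0.39 over these 9 and -0.00 over all tested genes. Fold changes are differences of log2(FPKM + 1), a scale on which genes with low values appear to change less.

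Ddx1, the closest of the 10 to Mycn, had a lowest, median and highest level of 3.97, 5.04 and 7.15 FPKM in TI and of 2.20, 3.78 and 5.79 FPKM in TIM. The ranges overlapped, and 5 of 8 TIM tumors lay below every TI tumor. The change in TIM vs TI was -0.45 ± 0.14 (log2, SE, adjusted p = 0.0265 in limma), and the call was lost without TI-c, TI-e, TIM-a or TIM-e (adjusted p 0.0536 to 0.0587) and with the spread set by the 2 groups only (0.0745). Nbas, which starts on the other side of a gap of 19.88 kb, ran from 0.729 over 1.32 to 2.50 FPKM in TI and from 0.432 over 0.896 to 1.84 FPKM in TIM. Of the TIM tumors, 1 was below all TI tumors, and the difference of -0.28 ± 0.14 did not pass (adjusted p = 0.168 in limma). The 2 nearest neighbors thus stood on opposite sides of the threshold, and a difference between their fold changes was not tested.

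Smc6 had a lowest, median and highest level of 0.729, 1.30 and 1.78 FPKM in TI and of 0.245, 0.673 and 0.966 FPKM in TIM. It fell by 0.45 ± 0.10 (log2, SE, adjusted p = 0.00231 in limma), with 5 of 8 TIM tumors below every TI tumor. Smc6 passed the filter on low values through TI alone, where 6 tumors reached 1 FPKM. Gen1, its head-to-head partner, ranged from 0.0521 over 0.413 to 1.01 FPKM (44 to 785 reads) in TI and from 0 over 0.139 to 0.465 FPKM (0 to 342 reads) in TIM. These ranges overlapped widely, and an exact two-sided permutation test over 12870 assignments gave p = 0.0600 (difference -0.26, adjusted p = 0.0750 over 5 contrasts).

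Of the genes 3.96 to 4.41 Mb from Mycn, Pdia6 separated the models completely. Its levels were 6.55, 7.58 and 9.54 FPKM (lowest, median, highest) in TI and 3.70, 4.75 and 5.98 FPKM in TIM, so that every TIM tumor was below every TI tumor. Pdia6 fell by 0.58 ± 0.09 (log2, SE, adjusted p = 0.000189 in limma). Rock2 had 0.527, 0.792 and 1.16 FPKM in TI and 0.357, 0.572 and 0.821 FPKM in TIM, with overlapping ranges and a difference of -0.20 ± 0.08 that did not pass (adjusted p = 0.0681 in limma). Nol10 had 1.34, 1.66 and 2.69 FPKM in TI and 0.684, 1.29 and 2.46 FPKM in TIM, and its difference of -0.28 ± 0.13 did not pass either (adjusted p = 0.107 in limma). With FPKM recomputed from the reads outside the 126 high genes, Rock2 and Nol10 passed (adjusted p = 0.0264 and 0.0489).

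The 3 genes farthest from Mycn all fell in TIM vs TI. Kidins220 had 3.89, 5.84 and 9.52 FPKM (lowest, median, highest) in TI and 1.62, 3.497 and 4.47 FPKM in TIM, and 6 of 8 TIM tumors were below every TI tumor. Its change was the largest of the tested neighbors in size, at -0.66 ± 0.15 (log2, SE, adjusted p = 0.00437 in limma). Taf1b had 1.02, 1.34 and 1.71 FPKM in TI against 0.517, 0.923 and 1.46 FPKM in TIM, and changed by -0.30 ± 0.09 (adjusted p = 0.0159 in limma). Asap2 had 1.05, 1.45 and 1.90 FPKM in TI against 0.247, 0.847 and 1.45 FPKM in TIM, and changed by -0.39 ± 0.11 (adjusted p = 0.0122 in limma, 0.0516 with the spread set by the 2 groups only). In both genes 5 of 8 TIM tumors lay below all TI tumors. By distance, the nearest pair did not hold the largest changes, and a trend with distance was not tested.

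**Figure D1:**
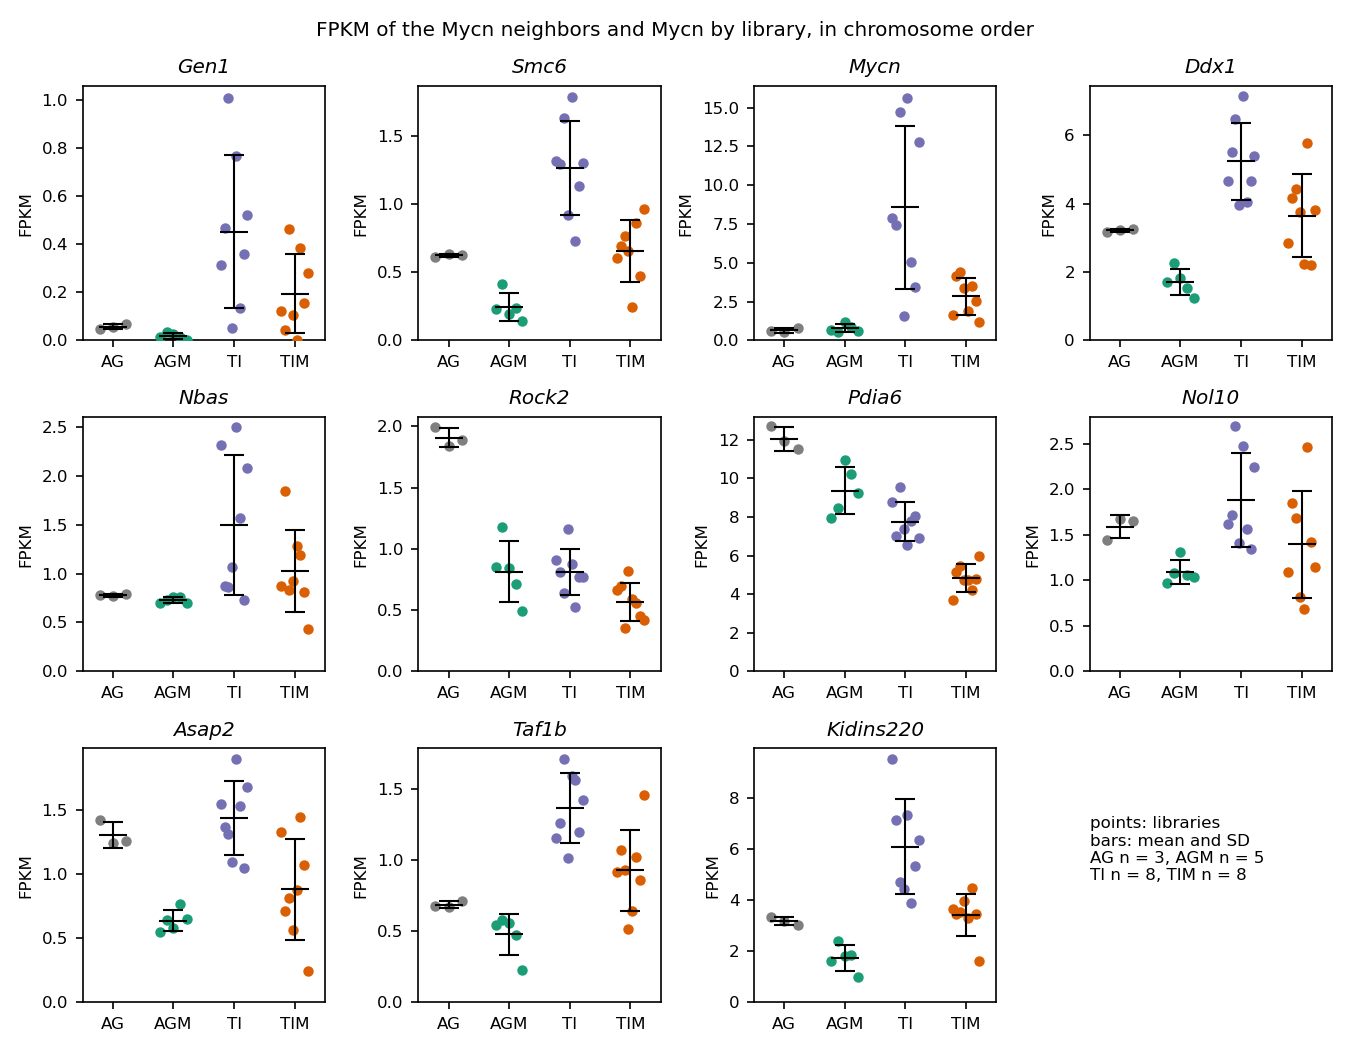
Level of the 10 neighbors and of Mycn in each library (FPKM on a linear axis, one panel per gene in chromosome order, points are libraries and bars are group means ± SD) for AG (n = 3), AGM (n = 5), TI (n = 8) and TIM (n = 8). Every AGM point lies below every AG point in the 10 neighbors, and TI and TIM separate without overlap in Pdia6.

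Mycn itself was lower in TIM than in TI. The mouse locus had 1.57, 7.67 and 15.6 FPKM (lowest, median, highest) in TI, a 9.96-fold range, and 1.20, 2.97 and 4.38 FPKM in TIM. Its change was -1.14 ± 0.30 (log2, SE, adjusted p = 0.00940 in limma), and only 1 TIM tumor was below all TI tumors because TI-d was low. With FPKM recomputed from the reads outside the high genes, the median of all tested genes moved to -0.12 in TIM vs TI, and the 9 neighbors lay between -0.51 and -0.91. Markers of the adrenal cortex did not differ past the threshold between the models (0 of 8), 1 of 8 neuroblast and chromaffin markers was lower in TIM, and 3 of 20 proliferation genes were lower. Their part in the result was not tested.

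Whether the lower level reached beyond the 10 genes was read from the other genes of the chromosome. Of the 49 other tested genes that start in the first 30 Mb, 26 were lower and 2 higher in TIM (53.1% lower, median -0.38). Of the 284 tested genes on the rest of chromosome 12, 136 were lower and 7 higher (47.9% lower, median -0.33). On the other autosomes the share called lower ran from 2.52% on chromosome 6 to 28.2% on chromosome 11. The median of the neighbors of Mycn was close to that of the other genes along the whole of chromosome 12, and a difference between them was not tested.

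**Figure D2:**
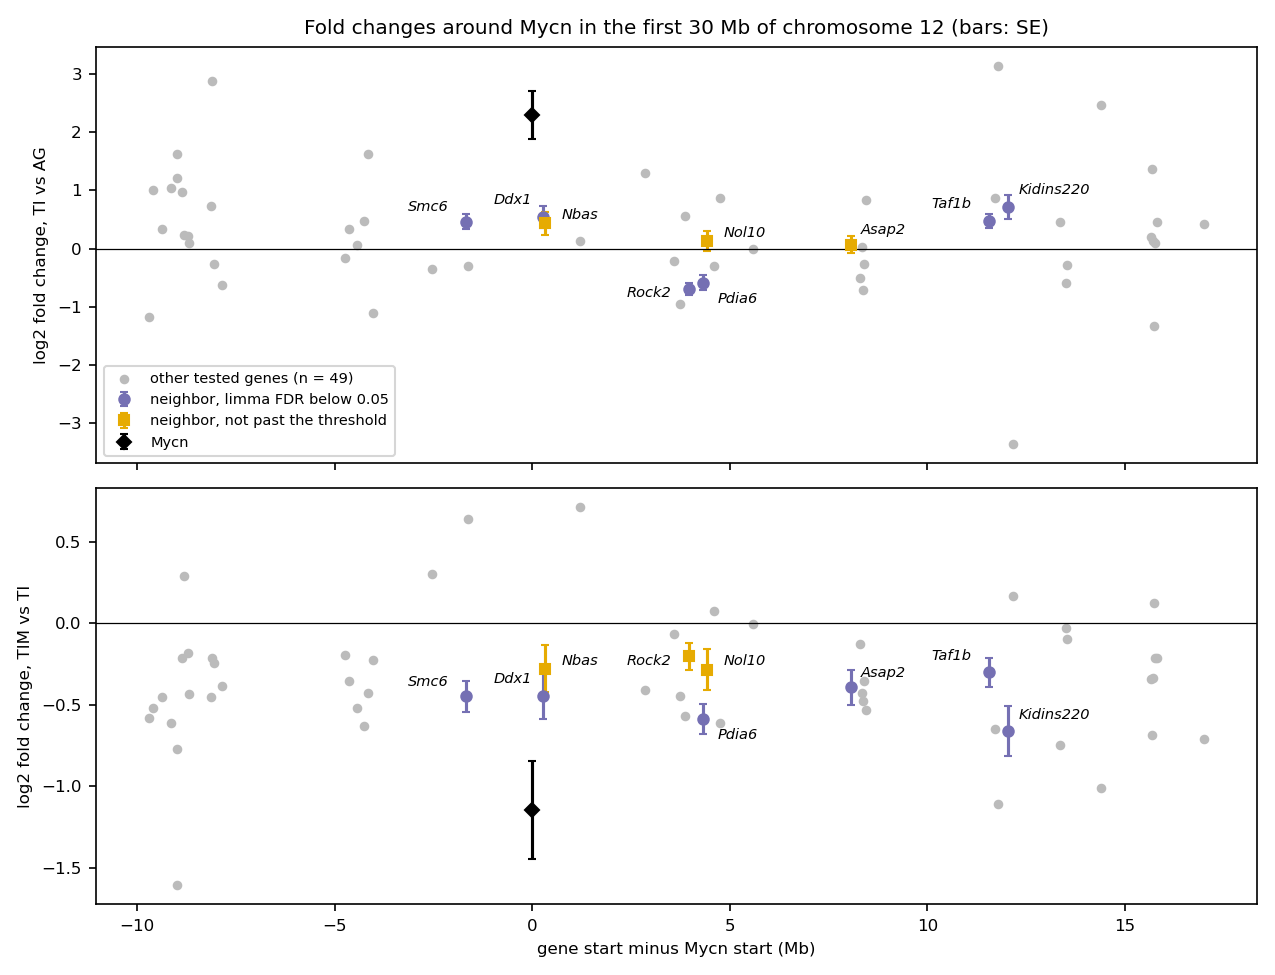
Log2 fold change (FPKM + 1) of tested genes in the first 30 Mb of chromosome 12 against gene start minus Mycn start (Mb), for TI vs AG (top) and TIM vs TI (bottom), with Mycn as a diamond, the 9 tested neighbors named (bars are SE, circles past the limma threshold, squares not) and the 49 other genes in grey. In TIM vs TI the 9 neighbors lie below 0, with a median of -0.39, and so do most grey points, with a median of -0.38.

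**Figure D3:**
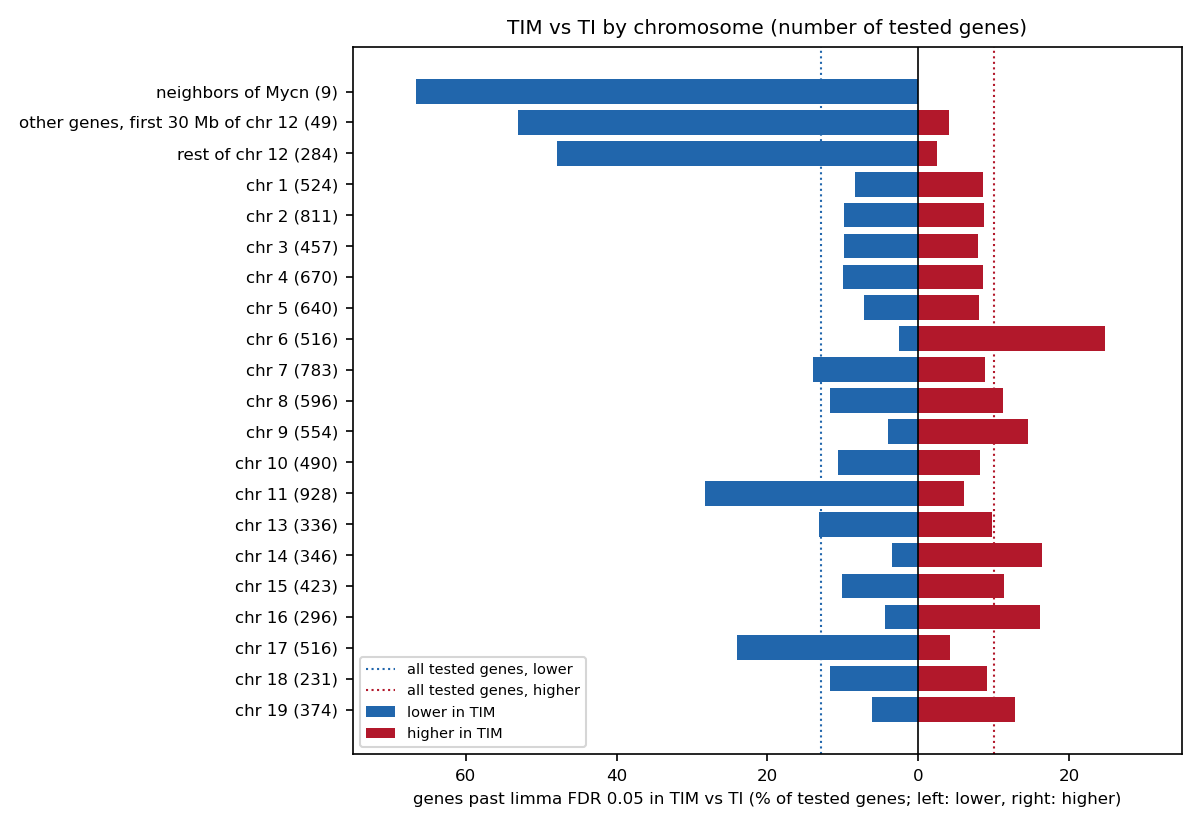
Share of tested genes past limma FDR 0.05 in TIM vs TI (percent, lower to the left and higher to the right) for the neighbors, the other genes of the first 30 Mb of chromosome 12, the rest of chromosome 12 and each other autosome, with dotted lines at the shares of all tested genes. The 3 bars of chromosome 12 stand at 66.7%, 53.1% and 47.9% lower, and the highest other autosome, chromosome 11, at 28.2%.

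Nearer genes of the same stretch did not all move this way. Lratd1, 1.21 Mb from Mycn, had 0.268 ± 0.302 FPKM (SD, n = 8) in TI and 1.13 ± 0.688 in TIM, and rose by 0.71 ± 0.17 (log2, SE, adjusted p = 0.00500 in limma). Vsnl1, a neuronal calcium sensor gene that starts 1.61 Mb before Mycn, had 0.220 ± 0.202 FPKM in TI and 0.997 ± 0.725 in TIM and rose by 0.64 ± 0.18 (adjusted p = 0.0120 in limma). These were the only genes of the first 30 Mb called higher. Both were also higher in the tumor-free AGM glands than in AG. Mean FPKM were 0.139 in AG and 1.13 in AGM for Lratd1 (adjusted p = 0.00919 in limma). For Vsnl1 they were 0.491 and 2.88 (adjusted p = 0.000358 in limma). Vsnl1 shares 126 exonic bases with Smc6 on the opposite strand, and the 2 genes moved in opposite directions. Of the 10 tested genes that start nearest to Mycn outside the neighbors, Greb1 (-0.45 ± 0.13, adjusted p = 0.0173), the transcription factor gene E2f6 (-0.57 ± 0.14, adjusted p = 0.00562) and the RNA-binding protein gene Pum2 (-0.63 ± 0.16, adjusted p = 0.00683) fell in limma. Rdh14 (0.30), Trib2 (-0.41), Lpin1 (-0.07), Laptm4a (-0.23) and Sdc1 (-0.43) did not pass. Apart from Mycn and the neighbors, the largest falls past the threshold in the first 30 Mb were those of Pomc, the precursor of ACTH (-1.61 ± 0.21, adjusted p = 3.58e-05), of the neuronal transcription factor gene Sox11 (-1.01 ± 0.37, adjusted p = 0.0487) and of Efr3b (-0.77 ± 0.11, adjusted p = 6.66e-05 in limma).

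A second comparison set the IGF2BP1 tumors against normal glands. In TI vs AG, 5 of the 10 neighbors were higher and 2 lower without a filter on low values (16.8% and 22.6% of all genes), and 4 of the 9 tested were higher and 2 lower with it (24.6% and 27.7% of tested genes). Kidins220, Ddx1, Taf1b and Smc6 rose, whereas Rock2 and Pdia6 fell. In each of these 6 genes the 8 TI tumors lay all above or all below the 3 glands. All above was the case for 17.6% of 18862 genes and 23.8% of tested genes, and all below for 23.0% and 27.3%. The median over the 9 was 0.44 and that over all tested genes -0.00. Of the 49 other tested genes of the first 30 Mb, 36.7% were higher and 18.4% lower (median 0.21). On the rest of chromosome 12 these shares were 38.4% and 16.9% (median 0.22), and on chromosome 17 they were 33.9% and 18.8%. A difference between the neighbors and these genes was not tested. The cortex markers fell in 7 of 8 cases in the same comparison and proliferation genes rose in 16 of 20. Adipocyte markers fell in 3 of 3 cases, from summed levels of 28.8 to 139 FPKM in AG to 0.167 to 2.27 FPKM in TI, and endothelial markers in 2 of 4, from 12.1 to 12.9 FPKM to 1.92 to 19.2 FPKM. The part of these cell types and of proliferation in the result was not tested.

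Kidins220 was at 3.35, 3.17 and 3.03 FPKM in the AG libraries, below the lowest TI tumor, and rose by 0.72 ± 0.21 (log2, SE, adjusted p = 0.00594 in limma). Ddx1 was at 3.17, 3.22 and 3.26 FPKM in AG and rose by 0.54 ± 0.19 (adjusted p = 0.0199 in limma), a call that was lost when any AG library was left out (adjusted p 0.0555 to 0.0621) or FPKM were recomputed (0.0543). Taf1b was at 0.675, 0.673 and 0.714 FPKM in AG and rose by 0.48 ± 0.12 (adjusted p = 0.00155 in limma). All 8 TI tumors were above all AG libraries in each of these genes. Smc6, at 0.612, 0.631 and 0.626 FPKM in AG, rose by 0.47 ± 0.13 (adjusted p = 0.00424 in limma). Taf1b and Smc6 passed the filter on low values through tumors alone, since no AG or AGM library reached 1 FPKM. Taf1b reached it in 8 TI and 3 TIM tumors and Smc6 in 6 TI tumors. Their calls as higher in tumors than in glands are thus not independent of the filter. Nbas, at 0.779, 0.766 and 0.796 FPKM in AG, overlapped with TI and differed by 0.44 ± 0.20 (adjusted p = 0.0662 in limma). Nol10, at 1.45, 1.67 and 1.66 FPKM in AG (difference 0.14 ± 0.17), and Asap2, at 1.43, 1.24 and 1.26 FPKM (difference 0.07 ± 0.15), did not pass (adjusted p = 0.546 and 0.744 in limma).

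The kinase gene Rock2 went the other way. It was at 1.99, 1.84 and 1.88 FPKM in AG, above every tumor of both models, and fell by 0.69 ± 0.11 in TI (log2, SE, adjusted p = 1.18e-05) and by 0.90 ± 0.11 in TIM (adjusted p = 3.23e-07 in limma). Pdia6 was at 12.7, 11.9 and 11.5 FPKM in AG and fell by 0.58 ± 0.12 in TI (adjusted p = 0.000414) and by 1.17 ± 0.12 in TIM (adjusted p = 4.52e-08 in limma). These were the only neighbors that passed the threshold in TIM vs AG, 2 of 9 lower and 0 higher (28.5% and 22.5% of tested genes). Asap2 passed as well with recomputed FPKM (-0.72, adjusted p = 0.0286), with limma-voom on recovered reads (-0.87, adjusted p = 0.0242) and without TIM-a or TIM-f (-0.37 and -0.38). The median of the 9 in TIM vs AG was 0.02, and the values of Ddx1 (0.10), Nbas (0.16), Smc6 (0.02), Kidins220 (0.06), Taf1b (0.18), Nol10 (-0.15) and Asap2 (-0.32) did not pass, with adjusted p from 0.0697 to 0.932 in limma. The signs of Ddx1, Smc6 and Kidins220 in TIM vs AG turned negative when FPKM were recomputed. Mycn itself was higher than in AG in both models, by 2.30 ± 0.41 in TI (log2, SE, adjusted p = 5.40e-05 in limma). In TIM it rose by 1.15 ± 0.41 (adjusted p = 0.0214 in limma). The latter call was lost without AG-a or AG-b (adjusted p = 0.0686 and 0.0717) and with limma-voom on recovered reads (0.0563). How many transgene reads align to the Mycn row was not tested. Both tumor comparisons share the AG libraries.

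Gen1 had 0.0492, 0.0563 and 0.0680 FPKM in AG (41 to 56 reads), against 0.0521 to 1.01 FPKM in TI. The ranges overlapped at their lower end, and the exact two-sided permutation test gave p = 0.0485 in TI vs AG (difference 0.43, adjusted p = 0.0750 over 5 contrasts). In TIM vs AG the exact permutation p was 0.212 for a difference of 0.16.

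The gland with the MYCN transgene was compared with the normal gland without any tumor present. Every AGM library was below every AG library in all 10 neighbors, a pattern held by 24.7% of 18862 genes and by 32.5% of tested genes. In limma 5 of the 9 tested fell and 0 rose (14.0% of tested genes fell), and without a filter on low values 6 of 10 fell (11.2% of all genes). The median over the 9 was -0.39, with -0.00 over all tested genes. Of the 49 other tested genes of the first 30 Mb, 14.3% fell and 12.2% rose (median -0.08). On the rest of chromosome 12 these shares were 21.5% and 9.86% (median -0.11), and a difference from the neighbors was not tested. In Ddx1 the AGM libraries had 1.70, 2.25, 1.81, 1.52 and 1.23 FPKM, and the change was -0.65 ± 0.21 (log2, SE, adjusted p = 0.0206 in limma). Rock2 had 0.848, 1.18, 0.845, 0.714 and 0.490 FPKM in AGM and changed by -0.69 ± 0.12 (adjusted p = 0.000102 in limma). Both genes lay clearly below their AG values in each of the 5 glands.

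Kidins220 had 1.62, 2.41, 1.81, 1.85 and 1.01 FPKM in AGM (change -0.63 ± 0.23, adjusted p = 0.0394 in limma). Asap2 had 0.546, 0.644, 0.583, 0.765 and 0.647 FPKM (change -0.50 ± 0.16, adjusted p = 0.0213 in limma), and Smc6 had 0.234, 0.415, 0.192, 0.238 and 0.142 FPKM (change -0.39 ± 0.14, adjusted p = 0.0406 in limma). The library AGM-e was the lowest AGM library in Ddx1, Nbas, Rock2, Kidins220, Smc6, Taf1b and Gen1. Nbas had 0.700, 0.727, 0.762, 0.756 and 0.698 FPKM, which is just below AG, and did not pass (-0.04, adjusted p = 0.914 in limma). Pdia6 (7.96, 8.46, 10.9, 10.2 and 9.22 FPKM), Nol10 (0.967, 1.08, 1.31, 1.06 and 1.04 FPKM) and Taf1b (0.545, 0.581, 0.560, 0.475 and 0.228 FPKM) were not called either, with differences of -0.34, -0.31 and -0.20. Gen1 had 0.0159, 0.0365, 0.0273, 0.0134 and 0.00154 FPKM (1 to 26 reads) in AGM, and its exact permutation p of 0.0179 is the smallest that 56 assignments allow (adjusted p = 0.0699).

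Mycn did not follow its neighbors in the glands. It was at 0.580, 0.559 and 0.823 FPKM in AG and at 0.689, 0.559, 1.19, 0.838 and 0.613 FPKM in AGM, with overlapping ranges and a difference of 0.10 (adjusted p = 0.904 in limma) that turned to -0.19 when FPKM were recomputed. When any AG library was left out, only Rock2 kept an FDR below 0.05, although the fold changes moved little (Ddx1 -0.64 to -0.66, Kidins220 -0.60 to -0.66, Smc6 -0.38 to -0.39 and Asap2 -0.46 to -0.52). Smc6 and Kidins220 also lost the call without AGM-a, AGM-c, AGM-d or AGM-e, and Ddx1 without AGM-e. With recomputed FPKM the median of all tested genes was itself at -0.41 in AGM vs AG. There 8 of 9 neighbors were called lower, beside 3630 of 10171 tested genes, and the 9 values lay between -0.45 and -1.49. All 8 cortex markers and 2 of 3 adipocyte markers were higher in AGM than in AG, and sequencing run, tissue composition and genotype cannot be told apart in this comparison. In TIM vs AGM, 4 of the 9 were higher (Ddx1 0.75, Kidins220 0.69, Smc6 0.40 and Taf1b 0.38) and Pdia6 was lower (-0.83), beside 31.9% and 33.4% of tested genes.

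Tumors of one model differed from each other, and the level of Mycn was used to order them. In the 8 TI tumors, 5 of the 9 tested neighbors had a positive Pearson correlation with Mycn at an exact permutation p below 0.05 (40320 pairings), and 7.87% of 10150 genes did. No gene of the table passed after adjustment over all genes (smallest adjusted p = 0.0503). Nol10 had r = 0.89 (exact permutation p = 0.00288, adjusted 0.149, rho = 0.93 with exact permutation p = 0.00223 and adjusted 0.199), and r = 0.95 without the 2 tumors farthest from the median of Mycn, TI-d and TI-g. Ddx1 had r = 0.86 (exact permutation p = 0.00732, adjusted 0.202, rho = 0.83 with exact permutation p = 0.0154 and adjusted 0.302), and 0.90 without these tumors. For Smc6, r was 0.79 (exact permutation p = 0.0202, adjusted 0.264, rho = 0.90 with exact permutation p = 0.00456 and adjusted 0.230), and 0.89 without them. In these 3 genes r stayed high without the 2 extreme tumors, both of them low in Mycn. Without TI-c or TI-e, the tumors highest in Mycn, Smc6 had r = 0.75 and 0.73 (exact permutation p = 0.0508 and 0.0601).

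Taf1b (r = 0.76, exact permutation p = 0.0305, adjusted 0.293, rho = 0.74 with exact permutation p = 0.0458 and adjusted 0.397) and Asap2 (r = 0.75, exact permutation p = 0.0333, adjusted 0.301, rho = 0.71 with exact permutation p = 0.0576 and adjusted 0.410) dropped to r = 0.43 and 0.32 without TI-d and TI-g. With 1 tumor left out, r of Taf1b ran from 0.59 (without TI-d) to 0.88 (without TI-f). That of Asap2 ran from 0.65 (without TI-d) to 0.90 (without TI-c), so both relations depend on single tumors. Gen1, below the filter, had r = 0.87 (exact permutation p = 0.00573, rho = 0.86 with exact permutation p = 0.0107), and 0.91 without the extreme tumors. Nbas (r = 0.46, rho = 0.48, exact permutation p = 0.245 and 0.243) and Kidins220 (r = 0.43, rho = 0.52, exact permutation p = 0.281 and 0.197) did not follow Mycn past the threshold, nor did Pdia6 (r = 0.00, rho = -0.19, exact permutation p = 0.994 and 0.665) and Rock2 (r = -0.39, rho = -0.10, exact permutation p = 0.334 and 0.840). Nbas, although next to Mycn, had a weaker correlation than Nol10 at 4.41 Mb, and the difference was not tested.

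**Figure D4:**
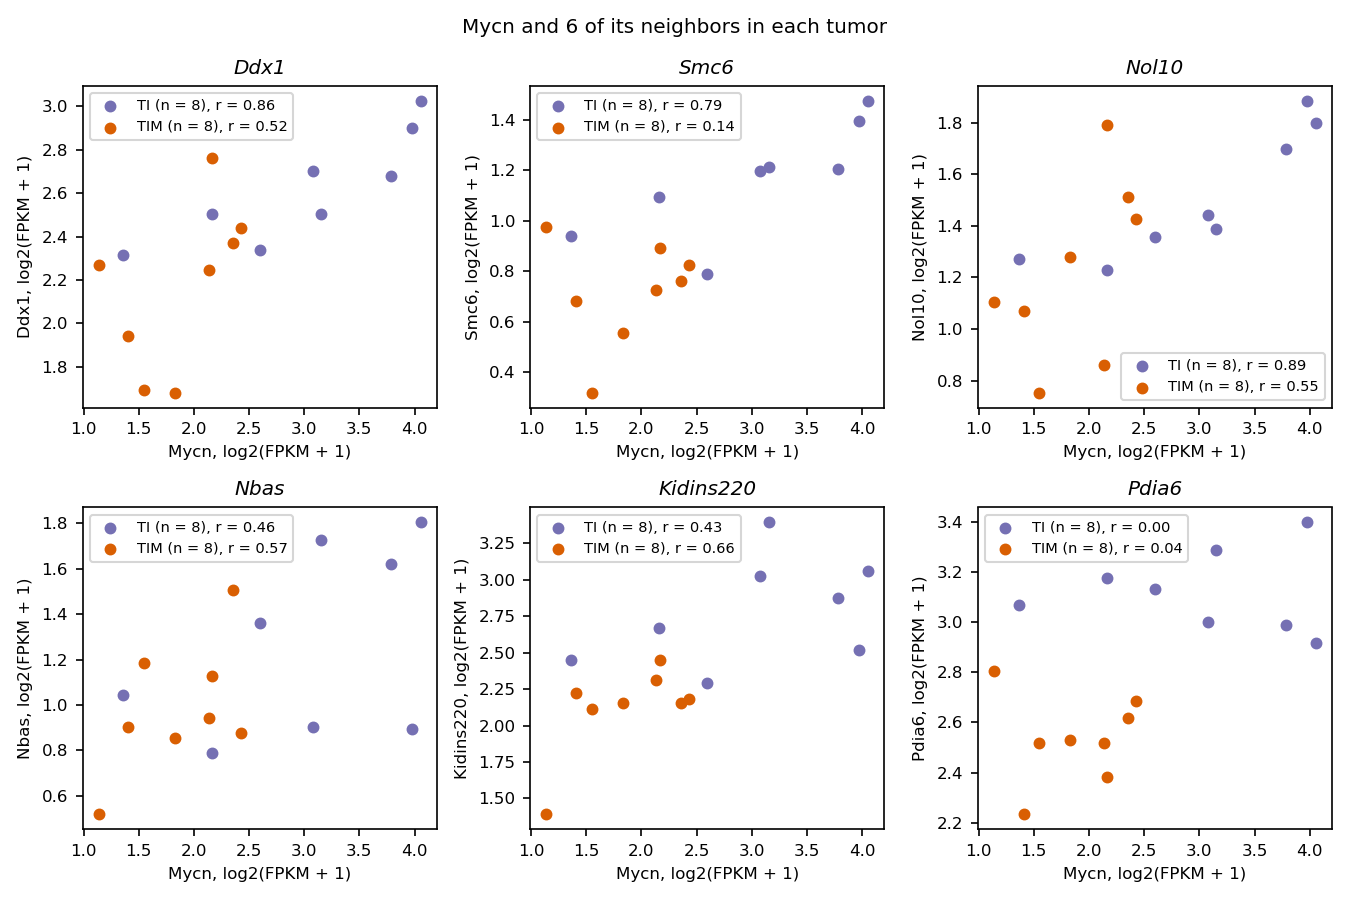
Level of 6 neighbors against the level of Mycn (both log2(FPKM + 1)) in the 8 TI and 8 TIM tumors, one panel per gene with Pearson's r per model and one point per tumor. In TI the points of Nol10, Ddx1 and Smc6 rise with Mycn (r = 0.89, 0.86 and 0.79), those of Pdia6 do not (r = 0.00), and in TIM the range of Mycn is narrower, from 1.20 to 4.38 FPKM.

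In the 8 TIM tumors, 1 of the 9 (Kidins220, r = 0.66, exact permutation p = 0.0436, adjusted 0.954, rho = 0.40) passed at an unadjusted p of 0.05, as 2.68% of 10148 genes did. Kidins220 fell to r = 0.26 without TIM-h and was 0.63 to 0.78 without any other single tumor (unadjusted exact permutation p up to 0.0841), so that its size rests on TIM-h. Ddx1 had r = 0.52, Nbas 0.57 and Nol10 0.55 in TIM. Smc6 had 0.14, Asap2 0.23, Rock2 0.11, Pdia6 0.04 and Taf1b -0.28. Without TIM-a and TIM-h, the 2 tumors farthest from the median of Mycn, r became 0.90 for Smc6 (unadjusted exact permutation p = 0.0153), 0.81 for Ddx1, 0.63 for Nol10, 0.51 for Taf1b, 0.42 for Pdia6, 0.32 for Kidins220, 0.11 for Nbas, -0.05 for Rock2 and -0.19 for Asap2, so the values in TIM depend on these tumors. The difference in correlation between the models was not tested.

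Other genes of the chromosome gave a smaller share than the 55.6% (5 of 9) of the neighbors in TI, and a difference was not tested. The count of 5 was 2 to 5 when 1 tumor was left out, and 3 without TI-d and TI-g. Of the 49 other tested genes of the first 30 Mb, 18.4% had a positive correlation with Mycn at p below 0.05, of the rest of chromosome 12 19.4%, of chromosome 1 16.03% and of chromosome 18 13.9%. The median level of the other genes of the first 30 Mb, relative to all tested genes, had r = 0.79 with Mycn in TI (exact permutation p = 0.0199, adjusted 0.0598 over 6 relations, rho = 0.71 with adjusted 0.173, r = 0.81 without TI-d and TI-g). The same value over the rest of chromosome 12 had r = 0.80 (exact permutation p = 0.0145, adjusted 0.0598, rho = 0.86 with adjusted 0.0643, r = 0.81 without these tumors), and the mean of 20 proliferation genes had r = 0.74 (exact permutation p = 0.0373, adjusted 0.0746, rho = 0.62 with adjusted 0.230, r = 0.67 without them). In TIM these 3 relations had r = 0.10, 0.35 and 0.03 (exact permutation p = 0.815, 0.391 and 0.939), and 0.75, 0.61 and 0.45 without TIM-a and TIM-h. Correlations of the neighbors among themselves had a median r of 0.22 over 36 pairs in TI (-0.75 to 0.94, 26 positive) and of 0.14 in TIM (20 positive), and their pairs with genes of other autosomes had a median of -0.00 in TI. Genes in a pair share libraries and depth, so these values are a description.

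To read the neighbors tumor by tumor, each gene was set to its mean over the 16 tumors, and the median over the 9 tested neighbors was taken after subtraction of the median of all tested genes. This relative level was 0.21 ± 0.17 (log2, SD, n = 8) in TI, from -0.00 in TI-d to 0.48 in TI-e. It was -0.16 ± 0.14 in TIM, from -0.37 in TIM-e to 0.07 in TIM-f. On the same scale AG had -0.23 and AGM -0.34. TI-d, at -0.00, was the only TI tumor below 0, whereas 7 of 8 TIM tumors were below 0. Since each gene was centred on the 16 tumors, 0 lies between the models and is not the level of a normal gland. Counts of tumors or windows above or below 0 thus restate the difference between the models.

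The 2 tumors with the most Mycn also had the highest relative level of the neighbors. TI-e had a relative level of 0.48 for the neighbors, 0.43 for the other genes of the first 30 Mb and 0.40 for the rest of chromosome 12, with Mycn at 15.6 FPKM. In TI-c these levels were 0.37, 0.29 and 0.22, with Mycn at 14.7 FPKM, and in TI-h 0.28, 0.16 and 0.17, with Mycn at 12.8 FPKM. At the other end, TI-d had -0.00, 0.00 and 0.02 with Mycn at 1.57 FPKM, and TI-f had 0.00, 0.05 and 0.01 with Mycn at 5.05 FPKM. TI-d also had the highest mean log2(FPKM + 1) of endothelial (2.27) and fibroblast markers (2.49) among the TI tumors. The next highest TI tumors were at 1.16 (TI-g) and 1.95 (TI-h). Its mean of the proliferation genes was the lowest of the TI tumors (1.27). TIM-e had -0.37, -0.25 and -0.19 with Mycn at 1.93 FPKM, and TIM-f 0.07, -0.10 and -0.04 with Mycn at 3.49 FPKM. TIM-e also had the highest mean log2(FPKM + 1) of Schwann, fibroblast and adipocyte markers among the TIM tumors (1.98, 2.37 and 3.06). TIM-a came next (1.61, 2.33 and 1.85). The mean of the proliferation genes was lowest in TIM-e (0.33). The part of these cell types and of proliferation in the levels of single tumors was not tested. TIM-f was the only one of the 16 tumors in which the neighbors were above 0 while the other stretches of chromosome 12 were below.

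TIM minus TI was -0.37 for the neighbors, -0.32 for the other genes of the first 30 Mb and -0.29 for the rest of chromosome 12. For the rest of chromosome 12 the mean relative level was 0.15 in TI, -0.13 in TIM, -0.11 in AG and -0.26 in AGM. For the other genes of the first 30 Mb it was 0.19, -0.13, -0.06 and -0.08. The 18 other autosomes ran from -0.15 (chromosome 11) to 0.19 (chromosome 6), with values of single tumors between -0.23 and 0.31. Chromosome 12 was next divided into 12 windows of 10 Mb counted from the start of Mycn, each with all its tested genes. TIM was below TI in every window, by 0.09 to 0.47 in size, and the window with Mycn at its end (-0.34) and the one that follows (-0.35) were inside this range. TI-b, TI-c, TI-e and TI-h were above 0 in 12 of 12 windows and TI-d and TI-f in 7. TIM-a, TIM-d, TIM-e and TIM-g were below 0 in 12 of 12. The DNA copy number of these tumors was not analysed here.

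**Figure D5:**
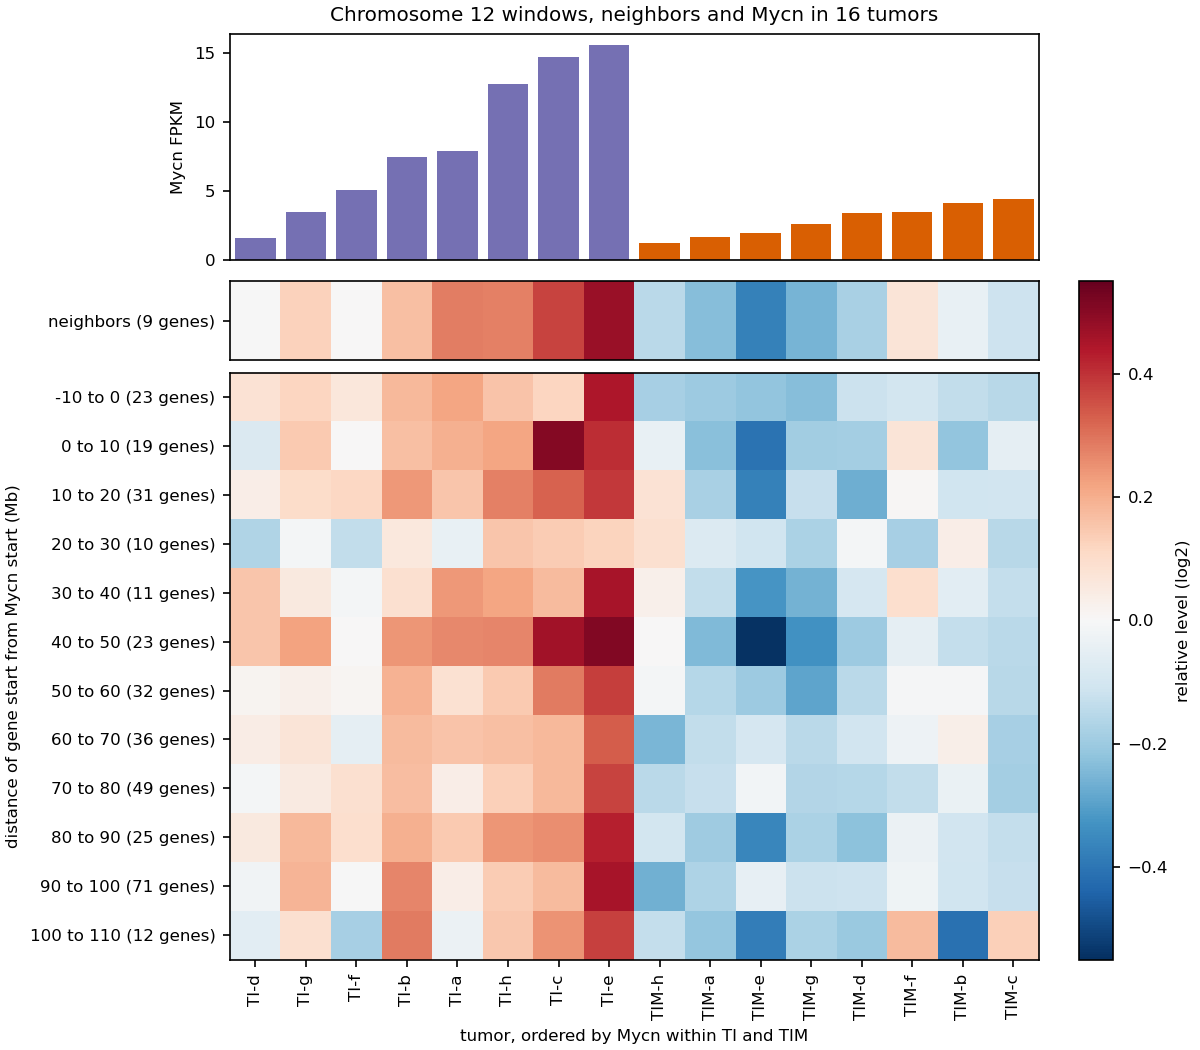
Mycn (FPKM, bars), the relative level of the 9 tested neighbors (strip) and that of windows of 10 Mb along chromosome 12 by distance from the start of Mycn (Mb, with the number of genes) in each tumor, ordered by Mycn within TI and TIM, with color for the relative level (log2). TI-e stands high along the chromosome, TI-d and TI-f lie near 0, and TIM-a, TIM-d, TIM-e and TIM-g are below 0 in all 12 windows.

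Genes that work with the neighbors but lie on other chromosomes were taken from lists of complex partners. Over all tested genes, 24.6% rose in TI vs AG and 12.9% fell in TIM vs TI. In the SMC5/6 complex 4 of 6 partners of Smc6 rose in TI vs AG, among them Smc5 (0.42, adjusted p = 0.00206) and Nsmce2 (0.60, adjusted p = 0.00501), and 2 of 6 fell in TIM vs TI (Smc5 -0.27, adjusted p = 0.0186, and Nsmce4a -0.53, adjusted p = 0.0300 in limma). Of 4 structure-selective nucleases that act beside Gen1, 2 rose in TI vs AG (Eme1 1.17 and Slx4 0.38, adjusted p = 0.00203 and 0.00962) and 3 fell in TIM vs TI (Eme1 -0.94, Slx1b -0.34 and Slx4 -0.27, adjusted p = 0.00437, 0.0235 and 0.0288 in limma). The median of the nucleases in TIM vs TI was -0.30. Slx1b, Eme1 and Slx4 lie on chromosomes 7, 11 and 16.

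Partners of the nearest pair moved otherwise. Of 3 tested tRNA ligase genes that act with Ddx1, Rtcb rose in TIM vs TI (0.60, adjusted p = 0.000685), where Ddx1 fell, and none passed in TI vs AG. Of 2 tested genes of the NBAS tether, Zw10 fell in TIM vs TI (-0.39, adjusted p = 0.0294 in limma) and Stx18 did not pass. Of 4 tested partners of Rock2 none passed in TIM vs TI, and in TI vs AG Limk2 rose by 0.90 (adjusted p = 4.66e-06) while Rhoa fell by 0.61 (adjusted p = 9.23e-05 in limma). Rock2 and Rhoa, its activator, were both lower in TI than in AG.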

How the data were processed

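Poly(A)-enriched, strand-specific libraries of 24 mouse samples were sequenced on an Illumina NovaSeq. Per the methods and the submitters' processing notes, reads were trimmed with cutadapt 2.8, aligned with HISAT2 2.1.0 to mm39 and counted with featureCounts 2.0.0, counts were batch-corrected with ComBat-seq (sva), and the authors normalized with TMM in edgeR 3.40. The authors deposited FPKM and gene lengths, together with their own log2 fold changes, p-values and FDR against AG from their own comparisons, which were not used. Batch correction can move genes with few reads, and recovered reads are corrected values.

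FPKM times length gave whole reads for 100% of entries (tolerance 0.001 reads). As the unit was FPKM, limma 3.58.1 (R 4.3.3, lmFit, eBayes with trend) was fitted to log2(FPKM + 1) of 10171 genes and all 24 libraries in 4 groups, without covariates. P-values were adjusted by Benjamini-Hochberg over all tested genes, with a threshold of 0.05. Correlations with Mycn used exact permutation. Code was tested on simulated data. The genes named are the 10 neighbors, Mycn, Igf2bp1, the 10 tested genes nearest to Mycn, the 8 most like the mean of the neighbors over the tumors (1 is not reported here) and up to 3 extreme genes per direction in the first 30 Mb. Of the extreme genes, 2 were called higher. The members and lists were chosen with earlier results of these data known.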

Additional observations from a re-analysis of the deposited data

Results flagged for a closer look

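Kidins220 in TIM-h, at 1.62 FPKM, was far below the other TIM tumors (gap to the next tumor of 0.596 of the group's range). It was the only such library among 36 groups of libraries tested, and chance marks about 1 in 20. Its correlation with Mycn in TIM rested on this tumor.

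The change against AG differed between the tumor models in 7 genes, by the limma test of TIM vs TI, in which AG cancels. The differences on the log2 scale were -0.45 for Ddx1, -0.45 for Smc6, -0.58 for Pdia6, -0.66 for Kidins220, -0.30 for Taf1b, -0.39 for Asap2 and -1.14 for Mycn. Of these genes, Ddx1, Smc6, Kidins220, Taf1b and Mycn had higher values in TI than in AG, and Pdia6 lower values in both models. Mycn was also higher in TIM than in AG.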

How the results depend on the processing

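No paired analysis was possible because the table's columns carry no replicate numbers of the sample titles. For single genes, 375 of 415 values were counted as unchanged under other settings, and 688 of 750 when 1 library was left out. For fold changes this meant the same direction and side of the threshold. For correlations a change of sign counted only where an exact permutation p was below 0.05, so other sign changes are among the unchanged. Examples were Rock2 in TI (r = -0.39, and 0.37 without TI-d and TI-g) and Taf1b in TIM (-0.28, and 0.51 without TIM-a and TIM-h). The 11 fold changes that changed sign were all not called. These were TIM vs AG of Ddx1 (-0.0303 with recomputed FPKM, -0.0426 with limma-voom on recovered reads), Smc6 (-0.00327 with a pseudocount of 0.1, -0.103 recomputed, -0.188 voom, -0.00782 without TIM-f, and -0.0194 to 0.0747 over all libraries left out) and Kidins220 (-0.0814 recomputed, -0.0877 voom), and AGM vs AG of Mycn (-0.190 recomputed, -0.307 voom).

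With at least 1 FPKM in every library, fewer genes were tested, and of the neighbors only Ddx1, Pdia6 and Kidins220. This gave 1627 called genes and 3 neighbors in TI vs AG, 1534 and 1 in TIM vs AG, and 569 and 2 in AGM vs AG. TIM vs TI had 737 and 3, and TIM vs AGM 1944 and 3. In AGM vs AG, 4604 genes were called with recomputed FPKM, where 8 neighbors were called (also 8 with voom), and 6312 with the spread set by the 2 groups only. In TIM vs TI, the latter gave 1309 genes against 2332 with all 4 groups. Leaving out 1 library gave 1727 to 2878 genes and 1 to 5 neighbors in AGM vs AG. The count of neighbors correlated with Mycn in TI was 3 without the 2 extreme tumors and 2 to 5 leaving out 1 tumor, and in TIM 0 by Spearman correlation and 0 to 1 leaving out 1 tumor. The relative level of the neighbors in TIM minus TI was -0.59 with a pseudocount of 0.1 and -0.58 with recomputed FPKM. The cause of these shifts was not tested.

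Scaling moved the median of all genes. With recomputed FPKM it was -0.41 in AGM vs AG, -0.15 in TIM vs AG, 0.31 in TIM vs AGM and -0.12 in TIM vs TI. The split of calls into higher and lower went from 51.2% and 48.8% to 21.2% and 78.8% in AGM vs AG, from 43.6% and 56.4% to 30.3% and 69.7% in TIM vs TI and from 48.8% and 51.2% to 61.7% and 38.3% in TIM vs AGM. With voom it was 14.4% and 85.6% in AGM vs AG, 31.5% and 68.5% in TIM vs AG (44.2% and 55.8% before), 22.7% and 77.3% in TIM vs TI and 60.5% and 39.5% in TIM vs AGM, and with at least 1 FPKM in every library 36.0% and 64.0% in AGM vs AG. Gen1, with at most 26 reads in AGM, is limited by depth.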

Other observations

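Outside the 10 genes, the expression pattern over the 16 tumors most like the mean of the tested neighbors, each gene centred on its mean in each model, belonged to Gphn (r = 0.95), which encodes the synaptic scaffold gephyrin and lies at chr12:78272504-78732541. Gphn had 1.95 ± 0.646 FPKM (SD, n = 8) in TI and 1.78 ± 0.512 in TIM. Others among the most like genes were Gria4 on chromosome 9 (r = 0.91), Apc on chromosome 18 (0.90), Appbp2 on chromosome 11 (0.89), Ice1 on chromosome 13 (0.89), Ppp4r3a on chromosome 12 (0.89) and Pank3 on chromosome 11 (0.88). Ppp4r3a had 1.32 ± 0.292 FPKM in TI and 0.656 ± 0.222 in TIM. Of the 100 most like genes, 19 were on chromosome 12, which held 3.29% of 10162 genes ranked. Mycn had r = 0.78 with the mean of the neighbors on this scale. The genes share libraries and depth, and the values are given as a description.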
